A study of Chlamydomonas reinhardtii with 31 samples.

Results

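The 9 genes described here carry out or sense the step at which ammonium enters organic nitrogen in the green alga Chlamydomonas reinhardtii. They are the glutamine synthetase genes GLN1 (Cre02.g113200), GLN2 (Cre12.g530650), GLN3 (Cre12.g530600) and GLN4 (Cre03.g207250), the glutamate synthase genes GSN1 (Cre13.g592200) and GSF1 (Cre12.g514050), and the glutamate dehydrogenase genes GDH1 (Cre09.g388800) and GDH2 (Cre05.g232150). The last is GLB1 (Cre07.g357350), which encodes the signalling protein PII. They were chosen by locus from a list of the pathway, without use of their values, and 9 of 17301 genes in the deposited table matched. Glutamine synthetase joins ammonium to glutamate, and glutamate synthase then moves the amide nitrogen of glutamine to 2-oxoglutarate, which gives glutamate. Algae hold a cytosolic and a chloroplast glutamine synthetase. They also hold glutamate synthases that draw electrons either from NADH or from ferredoxin. PII binds 2-oxoglutarate and adenine nucleotides and, in the chloroplasts of green algae and plants, controls arginine synthesis in response to glutamine.

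RNA sequencing followed cultures grown in the light in acetate-containing TAP medium with ammonium and then washed into the same medium without ammonium chloride, a treatment common to all strains. The strains were sta6 (CC-4348), a starchless mutant, STA6-C2 (CC-4565), STA6-C4 (CC-4566) and STA6-C6 (CC-4567), given in the labels as independent STA6 strains and called rescued strains here, and CC-4349, labelled wild type. The first library set held sta6 and CC-4349 at 0, 0.5, 2, 4, 8, 12, 24 and 48 h (16 samples), and the second held all 5 strains at 0.5, 4 and 48 h (15 samples). With 1 sample per strain, time and set there were no replicates within a group, so strains served as the repeats of a time and times as the repeats of a strain. Samples of 1 strain share that strain's own history, each strain is 1 line, and no source ties the samples to separate cultures. The p-values therefore cover only the scatter among these samples, which may in part be technical.

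Values were taken as FPKM, reads per gene scaled by gene length and sequencing depth, though the table names no unit. Levels, shares and ratios between genes rest on that reading. Column sums ran from 552025 to 889042 FPKM, and 5.68% to 11.5% of genes were listed at 0. The sources used here do not give total reads per sample, so no counting interval can be set on a value. The gene Cre03.g188250.t1.1 separated the strains by label, at 0.478 to 2.55 FPKM in the 11 sta6 samples and 98.2 to 845 FPKM in the other 20. One library stood apart: at 0.5 h the first-set sta6 sample lay close to its own 0 h sample, with 2744 of 15108 genes (18.2%) past a log2 difference of 1, against 6521 (43.2%) in CC-4349. Each first-set sample had a pair of deposited columns, which were averaged. In sta6, GSN1 was higher in the first column of the pair at 8 of 8 times, by 1.90-fold on average, and GSF1 likewise by 1.74-fold. Over all genes, 33.0% ran one way at all 8 times in sta6 and 1.45% did in CC-4349. The CC-4349 columns nonetheless differed at 4 h. In the first and second column GSN1 held 125 and 249 FPKM, GLN4 84.8 and 166 FPKM, and GLN2 3658 and 2309.5 FPKM. GLN1 was closer there, at 1009 and 919 FPKM. The CC-4349 levels given for 4 h are means of these columns.

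GLN2, the chloroplast enzyme, was the most abundant of these transcripts in 31 of 31 libraries, at 942 to 3937 FPKM with a median of 1916. GLN1, the cytosolic enzyme, came next by its median of 680.0 FPKM (134 to 1376). GSN1 (median 190.4 FPKM), GLN4 (184), GSF1 (177) and GLN3 (127) had overlapping ranges. GLB1 (77.3 FPKM), GDH2 (46.6) and GDH1 (37.1) were lowest by median. GLN3 had the widest range, from 0.730 to 768 FPKM, and took any place from the 3rd to the 9th of the 9 genes. GLN4 had the narrowest range, 125 to 275 FPKM. All 9 genes passed the filter on low values in both sets.

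The first question was how these genes behaved in the hours after ammonium was withdrawn. In the first set GLN1, GLN3, GSN1, GSF1, GDH1 and GLB1 rose and GDH2 fell at 2 h against 0 h, and by 48 h the glutamine synthetase, glutamate synthase and GDH1 transcripts that had risen were still above 0 h. The strain-and-time model (limma on log2(FPKM + 1), Benjamini-Hochberg adjustment over 15108 genes, threshold 0.05) called 6 of the 9 higher and 1 lower at 2 h, where 54.5% of all genes were called, 39.8% higher and 14.7% lower. At 48 h it called 5 higher and 1 lower, where 49.7% of all genes were called, 37.9% higher and 11.8% lower. At 4 h, 8 h and 12 h the counts were 6, 7 and 7 higher and 2, 1 and 1 lower. Over all genes, 48.8% (37% higher, 11.8% lower) were called at 4 h, 47.4% (37.5% higher, 9.92% lower) at 8 h and 49.1% (38.5% higher, 10.6% lower) at 12 h. At 24 h, 5 were higher and 1 was lower, where 49.4% of all genes were called (37.8% higher, 11.6% lower). The moderated F test over all times called 7 of the 9, all but GLN2 and GLN4, where it called 52.1% of all genes. The median log2 change at 2 h was 1.61 over the 9 genes and 0.529 over all genes as deposited. With quantile normalization these medians were 1.54 and 0.124. At 2 h 6 of the 9 were then called higher and 1 lower, where 22.3% of all genes were called higher and 19.6% lower.

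GLN1 rose steeply and then settled at a middle level. In sta6 it stood at 135, 134, 1245, 1157, 865, 755, 476 and 453 FPKM over the 8 times from 0 to 48 h. In CC-4349 it stood at 165, 562, 1376, 964, 754, 719, 706 and 680.0 FPKM. Every sample from 2 h on, in either strain, was above both 0 h samples. The log2 difference from 0 h was 3.12 ± 0.463 (SE) at 2 h (adjusted p = 0.000699) and 1.89 ± 0.463 at 48 h (adjusted p = 0.00786).

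GLN2 changed later and less. It was highest at 8 h in sta6, at 3937 FPKM against 1107 FPKM at 0 h, and at 4 h in CC-4349, at 2984 FPKM against 1453 FPKM at 0 h. The test called it higher at 8 h (log2 difference 1.25 ± 0.402, adjusted p = 0.0265) and at 12 h (1.15 ± 0.402, adjusted p = 0.0356), and at no other time. With libraries set to equal medians neither time was called. Over all 7 contrasts with 0 h it did not pass the moderated F test (adjusted p = 0.0754).

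GLN3, a further glutamine synthetase gene that lies beside GLN2 with 0 genes between them in the v5.5 assembly, was near the bottom of the scale with ammonium. In sta6 it stood at 1.90, 1.52, 134, 220.3, 222, 194, 127 and 116 FPKM over the 8 times. In CC-4349 it stood at 0.730, 23.5, 269, 338, 235, 195, 165 and 179.7 FPKM. All 12 samples from 2 h on exceeded 100 FPKM, and both 0 h samples lay under 2 FPKM. Its log2 difference of 6.41 ± 0.700 at 2 h (adjusted p = 0.000224) was the largest among the 9 genes, and at 48 h it was 6.02 ± 0.700 (adjusted p = 0.000211). Whether reads could be shared with the other glutamine synthetase genes was not examined, and the values for GLN2 and GLN3 are uncertain to that extent.

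GLN4, the remaining glutamine synthetase gene, moved little. It ranged from 172 to 219.5 FPKM in sta6 and from 125 to 275 FPKM in CC-4349. It was called lower at 4 h alone (log2 difference -0.62 ± 0.227, adjusted p = 0.0424), where 48.8% of all genes were called. In CC-4349 at 4 h the pair of deposited columns held 84.8 and 166 FPKM of GLN4. The call depended on processing. GLN4 was not called at 4 h with quantile normalization, with the second columns alone or with no strain block. With equal medians it was also called lower at 2 h (-0.89, adjusted p = 0.0126) and 48 h (-0.87, adjusted p = 0.0149), and with quantile normalization its value at 48 h was 0.08.

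Among the glutamate synthase genes, NADH-dependent GSN1 dipped before it rose, and ferredoxin-dependent GSF1 had no dip. GSN1 stood at 70.0, 25.4, 223, 323, 385, 346, 248 and 282 FPKM over the 8 times in sta6. In CC-4349 it stood at 54.2, 31.7, 162, 187, 218, 224, 190.4 and 200.3 FPKM. Both strains were lowest at 0.5 h (log2 difference from 0 h -1.09 ± 0.264, adjusted p = 0.0166), and both were over 3 times their 0 h level by 4 h (1.98 ± 0.264, adjusted p = 0.000515). The 0.5 h call was lost with the first deposited columns alone and with no strain block. GSF1 stood at 64.8, 84.3, 284, 303, 260.1, 229.8, 173 and 164 FPKM in sta6. In CC-4349 it stood at 63.6, 166, 214, 182, 160.2, 141, 172 and 186 FPKM. GSF1 was called higher from 2 h (1.93 ± 0.375, adjusted p = 0.00243) to 48 h (1.43 ± 0.375, adjusted p = 0.0106), although with equal medians it was not called from 12 h on (0.91 at 48 h, adjusted p = 0.0855).

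The ratio of GSF1 to GSN1 was highest at 0.5 h and under 1 later in the first set. In sta6 it was 0.925 at 0 h, 3.32 at 0.5 h, 1.27 at 2 h and 0.582 at 48 h. In CC-4349 it was 1.17 at 0 h, 5.22 at 0.5 h, 1.32 at 2 h and 0.927 at 48 h. By the mean of each pair of columns, the ferredoxin-dependent gene was thus the more abundant at 0.5 and 2 h in both strains. It was the less abundant from 4 h on. In CC-4349 at 4 h the columns disagreed. The first held 154 FPKM of GSF1 and 125 FPKM of GSN1, the second 209.8 and 249 FPKM. At 24 h the first CC-4349 column held 171.6 FPKM of GSF1 and 169.6 FPKM of GSN1. In the second set the ratio ran from 1.44 to 3.24 over the 5 strains at 0.5 h and from 0.700 to 0.946 at 48 h. At 4 h of that set it was 0.865 in sta6, 0.830 to 0.913 in the rescued strains and 1.70 in CC-4349, so CC-4349 was still above 1 there.

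The enzymes of the glutamate dehydrogenase genes interconvert glutamate and 2-oxoglutarate with release or uptake of ammonium. Against 0 h, GDH1 was higher and GDH2 lower from 2 h on, while at 0.5 h both were below 0 h in both strains. GDH1 stood at 17.7, 9.66, 37.7, 50.2, 43.1, 46.9, 49.7 and 50.5 FPKM over the 8 times in sta6, and at 11.7, 10.7, 27.6, 36.7, 35.7, 38.7, 40.4 and 36.8 FPKM in CC-4349. GDH2 stood at 119, 89.4, 23.5, 40.4, 67.4, 68.8, 54.6 and 47.0 FPKM in sta6. In CC-4349 it stood at 275, 42.2, 37.8, 45.2, 60.6, 58.2, 48.9 and 47.5 FPKM. GDH2 was highest at 0 h and lowest at 2 h in both strains, with a partial return at 8 and 12 h. At 2 h GDH1 was higher by 1.11 ± 0.210 (log2, adjusted p = 0.0021) and GDH2 was lower, at -2.56 ± 0.419 (adjusted p = 0.00108). At 48 h the log2 differences were 1.52 ± 0.210 for GDH1 (adjusted p = 0.000471) and -1.91 ± 0.419 for GDH2 (adjusted p = 0.00455). In sta6 the level of GDH2 was 0.930 times that of GDH1 at 48 h, against 6.69 times at 0 h. In CC-4349 it was 1.29 times that of GDH1 at 48 h, against 23.5 times at 0 h.

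GLB1 rose early and then declined. In sta6 it stood at 24.5, 18.5, 160.4, 134, 104, 92.1, 57.1 and 46.0 FPKM over the 8 times. In CC-4349 it stood at 38.1, 76.0, 213, 160.3, 86.2, 77.1, 75.8 and 77.3 FPKM. Its peak at 2 h was the same time as that of GLN1 in both strains. The log2 difference was 2.56 ± 0.438 at 2 h (adjusted p = 0.00132), and it no longer passed at 24 h (1.08 ± 0.438, adjusted p = 0.0612) or 48 h (0.94 ± 0.438, adjusted p = 0.0949). With equal medians GLB1 was not called at 8 h or 12 h either, and with no strain block it was not called at 12 h. Without the sta6 library at 0.5 h, which stood apart, it was called at 24 h and at 48 h (0.94, adjusted p = 0.0109). By 48 h it was at 28.7% of its peak in sta6 and 36.3% in CC-4349.

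**Figure D1:**
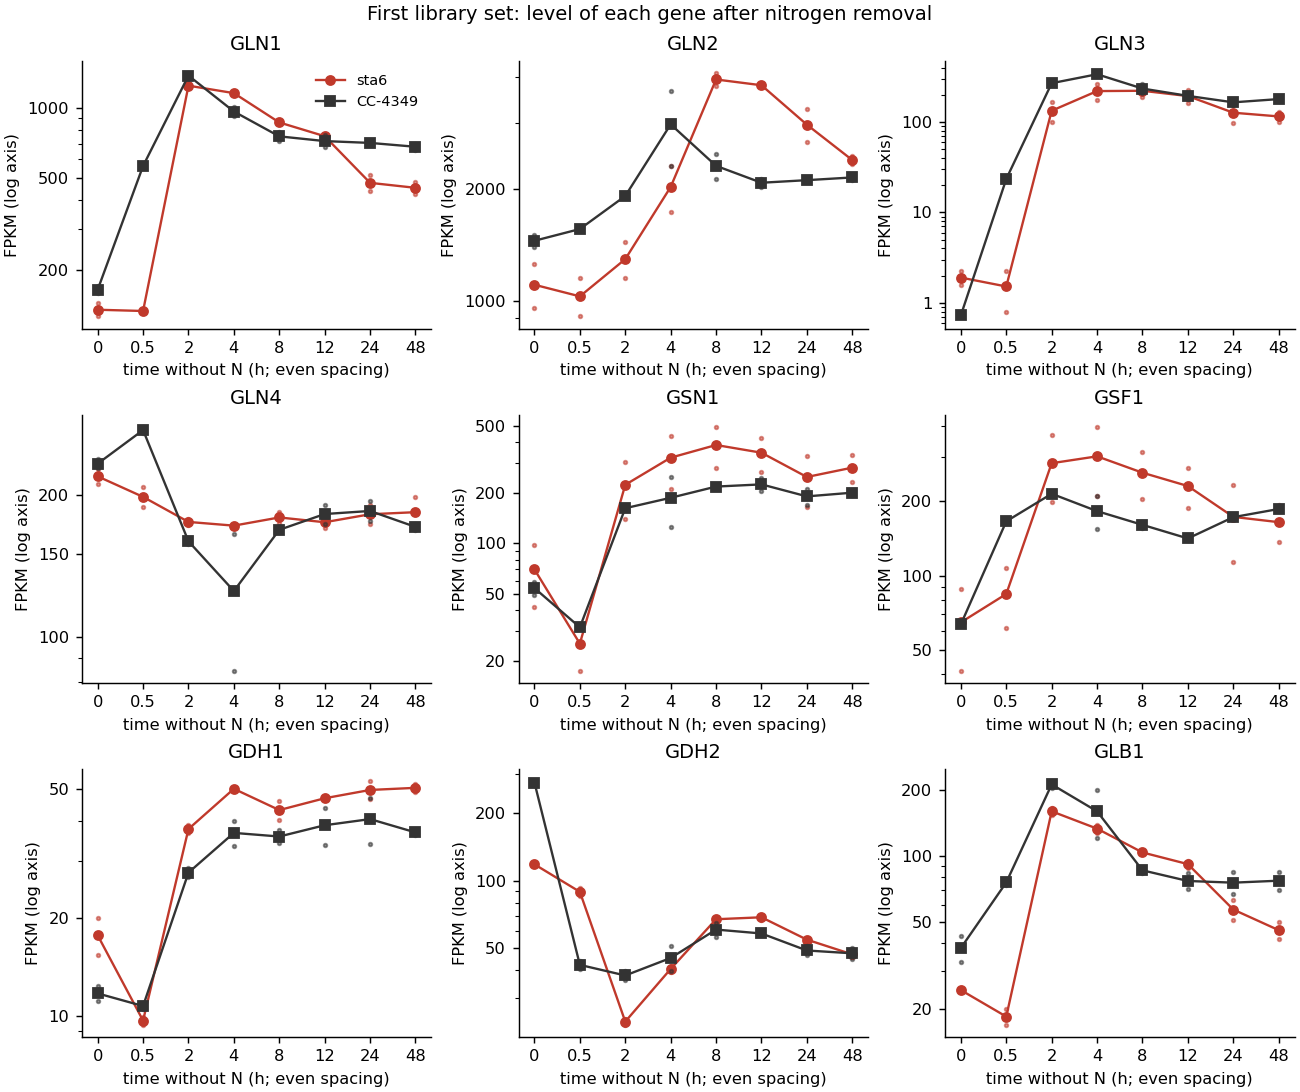
Level (FPKM, log axis) of each of the 9 genes in the first library set over 8 times without nitrogen, spaced evenly. Large red circles are sta6 and large black squares CC-4349, each the mean of a pair of deposited columns drawn as small points; GLN3 is over 100 FPKM from 2 h on, against under 2 FPKM at 0 h, while GDH2 is highest at 0 h.

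At 0.5 h the strains parted. GLN1 stood at 134 FPKM in sta6 and 562 FPKM in CC-4349, GLN3 at 1.52 FPKM in sta6 and 23.5 FPKM in CC-4349, and GLB1 at 18.5 FPKM in sta6 and 76.0 FPKM in CC-4349. The test over both strains called 0 of the 9 genes higher and 2 lower (GSN1 and GDH2) at 0.5 h, where 20.9% of all genes were called, 14.8% higher and 6.12% lower. Leaving out the sta6 library at 0.5 h, a step added after seeing the data, left 1 CC-4349 sample at that time, so only its ratios to 0 h are given. They were 3.41 for GLN1, 32.2 for GLN3, 2.60 for GSF1 and 1.99 for GLB1. For GSN1 and GDH2 they were 0.585 and 0.153, and for GLN2, GLN4 and GDH1 1.08, 1.18 and 0.914. These ratios are a description without a test. In the second set, which holds separate sta6 libraries, sta6 at 0.5 h had 531 FPKM of GLN1 and 66.6 FPKM of GLB1. Against the first-set sta6 library of that time these levels were 3.97 and 3.59 times as high, and 6 of the 9 genes were over 1.5 times as high. CC-4349 of the second set had 522 FPKM of GLN1 and 76.8 FPKM of GLB1 at 0.5 h. GLN3 stayed apart there, at 4.22 FPKM in sta6 and 73.7 FPKM in CC-4349. Levels set across the sets are a description, since whether the sets were quantified alike was not tested here. What set the first-set library apart was not tested.

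The second set asked the same question with 5 strains and separate libraries, from 0.5 h on. At 4 h against 0.5 h, 7 of the 9 genes were called higher and 0 lower, where 22.4% of all genes were called, 12.7% higher and 9.73% lower. GLN3 (log2 difference 2.01 ± 0.267, adjusted p = 0.000483), GSN1 (1.35 ± 0.180, adjusted p = 0.000485) and GDH1 (1.41 ± 0.190, adjusted p = 0.000516) rose in 5 of 5 strains. The other calls were smaller: GLN1 (0.53), GLN2 (0.58), GDH2 (0.47) and GLB1 (0.41). Of these, GLN1, GLN2 and GLB1 also rose in 5 of 5 strains, and GDH2 in 4 of 5. At 4 h the number of the 9 genes called fell to 4 without sta6, 3 without STA6-C2, 3 without STA6-C4 and 5 without STA6-C6. All of these were higher. Over all genes the share called higher fell as well, from 12.7% to 11.1%, 6.19%, 6.04% and 6.87% in the same fits. GLN3, GSN1 and GDH1 kept their calls in each of these fits. Without strain as a block the GLN3 call was lost (adjusted p = 0.287).

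At 48 h against 0.5 h, GLN2, GLN3, GSN1 and GDH1 were called higher and GLB1 lower, where 61.5% of all genes were called, 29.3% higher and 32.2% lower. GDH1 rose most surely. It had 24.2, 49.8 and 63.3 FPKM in sta6 at 0.5, 4 and 48 h. In the rescued strains it had 10.1, 36.2 and 60.9 FPKM in STA6-C2, 9.16, 37.1 and 56.3 FPKM in STA6-C4, and 13.3, 40.1 and 55.8 FPKM in STA6-C6. In CC-4349 it had 8.06, 15.5 and 44.5 FPKM. It rose at each step in 5 of 5 strains, and the log2 difference at 48 h was 2.13 ± 0.190 (adjusted p = 3.9e-06).

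GLB1 had 66.6, 117 and 45.1 FPKM in sta6 at the 3 times. It had 98.9, 134 and 52.6 FPKM in STA6-C2, 83.5, 96.2 and 44.0 FPKM in STA6-C4, and 108 (0.5 h), 114 (4 h) and 47.4 (48 h) FPKM in STA6-C6. In CC-4349 it had 76.8, 113 and 53.5 FPKM. In all 5 strains the 48 h level was the lowest of the 3, at 38.5% to 47.3% of the 4 h level, and the log2 difference from 0.5 h was -0.81 ± 0.122 (adjusted p = 0.000155). GLN1 peaked at 4 h in all 5 strains as well, with 52.1% to 77.4% of that level left at 48 h. Its 48 h level was not called different from 0.5 h (-0.23 ± 0.144, adjusted p = 0.185), and its sign turned with quantile normalization (0.52, adjusted p = 0.00345).

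GLN2 had 942, 1865 and 3119 FPKM in sta6 at the 3 times. It had 1126, 1955 and 2208 FPKM in STA6-C2, 1182, 1312 and 2073 FPKM in STA6-C4, and 1146, 1906 and 2001 FPKM in STA6-C6. In CC-4349 it had 1614, 1914 and 1766 FPKM. The sta6 value at 48 h was the highest of the set and its value at 0.5 h the lowest. The log2 difference at 48 h over the strains was 0.89 ± 0.187 (adjusted p = 0.00153). GSN1 was between 162 and 252 FPKM at 48 h and between 57.3 and 103 FPKM at 0.5 h in the 5 strains, with no overlap (1.38 ± 0.180, adjusted p = 5.4e-05). The F test over the 3 times called 7 of the 9 genes, where 67.3% of all genes were called, and left out GSF1 (adjusted p = 0.309) and GLN4 (adjusted p = 0.332). GSF1 stayed between 137 and 250.4 FPKM. The 95% interval of its change at 48 h was -0.28 to 0.40 on the log2 scale.

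**Figure D2:**
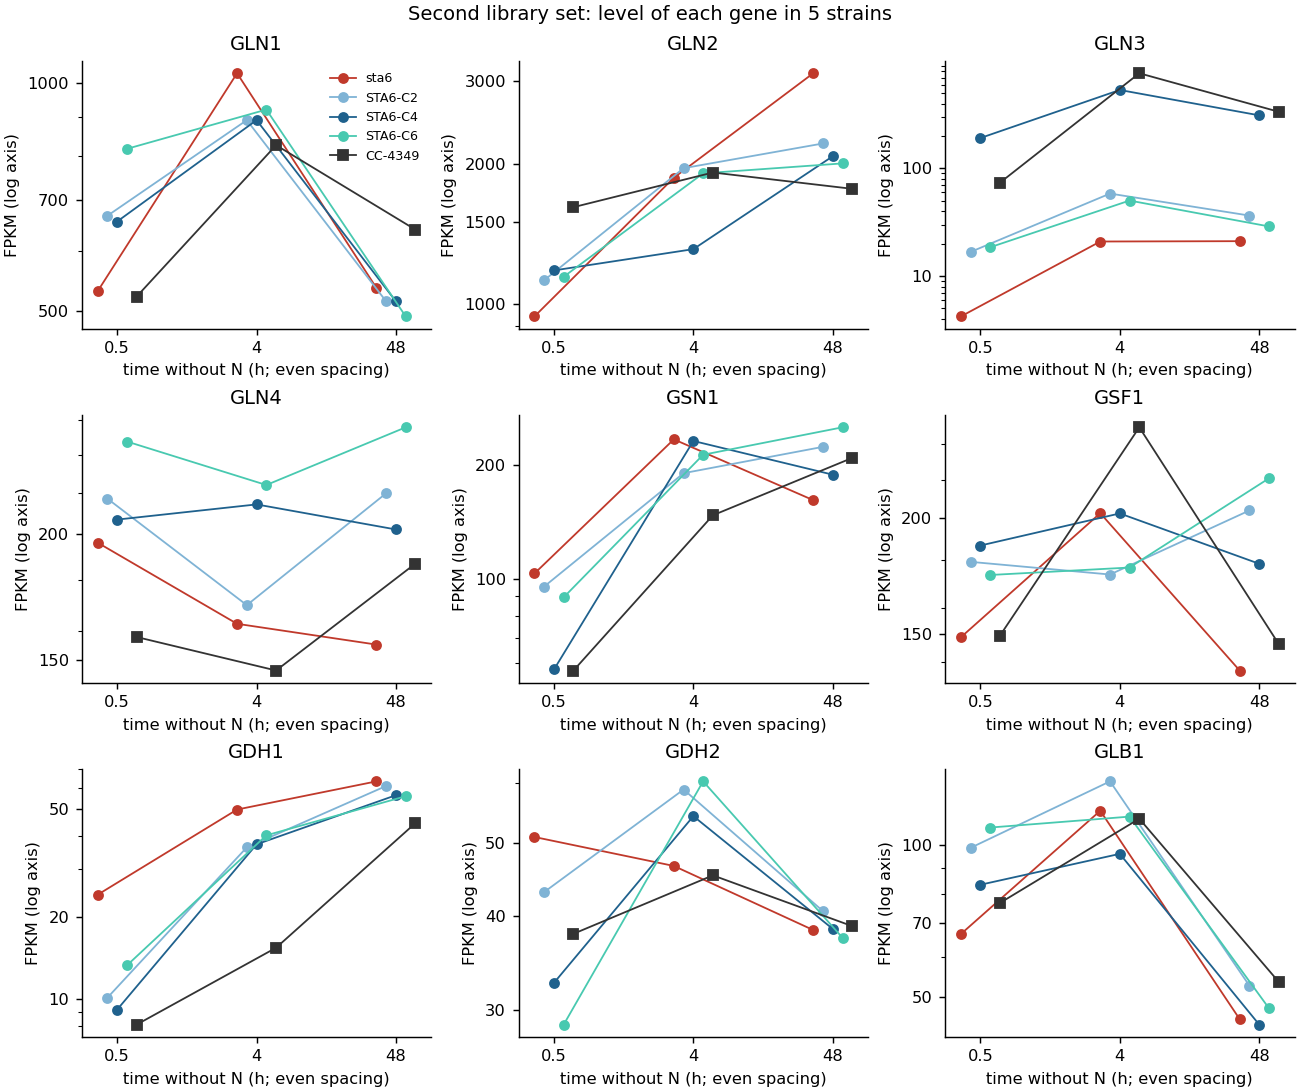
Level (FPKM, log axis) of each of the 9 genes in the 5 strains of the second library set at 0.5, 4 and 48 h without nitrogen, 1 library per point, points shifted sideways by strain. GDH1 climbs at each step in all 5 strains with sta6 on top, GLB1 is lowest at 48 h in all 5, and GLN3 of sta6 is at the bottom at all 3 times.

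The mixture of glutamine synthetase transcripts shifted with time. GLN2 made up 75.6% of the summed FPKM of GLN1 to GLN4 in sta6 and 78.4% in CC-4349 at 0 h, and GLN1 made up 9.25% in sta6 and 8.91% in CC-4349. At 2 h the share of GLN1 was 43.7% in sta6 and 37.0% in CC-4349, its highest in either time course. By 48 h GLN1 was back to 14.4% in sta6, against 21.4% in CC-4349. GLN3 never passed 7.67% in the first set, but reached 18.2% in STA6-C4 and 21.0% in CC-4349 at 4 h of the second set. It was at most 1.90% at all times in sta6, STA6-C2 and STA6-C6 of that set. The summed level of the 4 genes peaked at 5204 FPKM in sta6 (8 h) and 4411 FPKM in CC-4349 (4 h), against 1464 FPKM in sta6 and 1852 FPKM in CC-4349 at 0 h. These shares are a description without a test.

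**Figure D3:**
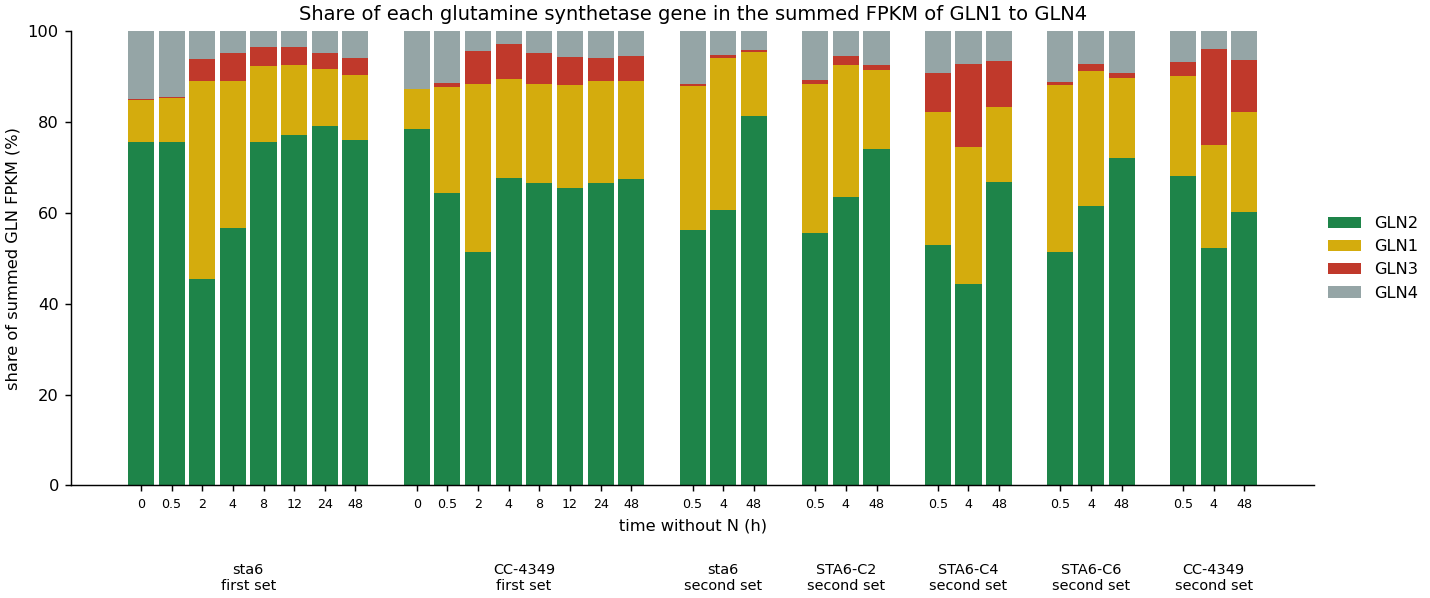
Share (%) of GLN2, GLN1, GLN3 and GLN4 in their summed FPKM, 1 bar per library, ordered by set, strain and time without nitrogen. GLN2 holds 44.4% to 81.4% of the sum, the GLN1 band is widest at 2 h of the first set, and the GLN3 band is visible in the second set mainly in STA6-C4 and CC-4349.

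The second question was whether the starchless mutant differed from the rescued strains and from CC-4349. None of the 9 genes passed between sta6 and the rescued strains (limma with time and class, 15 libraries), where 0.741% of all genes were called (0.354% higher, 0.387% lower), and 3 of the 9 had an unadjusted p under 0.05. These were GLN3, lower in sta6 in 9 of 9 same-time pairs (log2 difference -2.35 ± 0.900, adjusted p = 0.291), GLN4, also lower in 9 of 9 (-0.34 ± 0.121, adjusted p = 0.249), and GDH1, higher in 9 of 9 (0.54 ± 0.188, adjusted p = 0.235). For the other 6 genes the 95% intervals lay within -0.55 and 0.54 on the log2 scale. The 9 pairs use only 3 sta6 libraries, so they are not independent.

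Against CC-4349 in the same set, sta6 differed in 2 genes, where 26.8% of all genes were called, 11.1% higher and 15.6% lower. GLN3 was lower (-4.30 ± 1.10, adjusted p = 0.0119), with the 3 sta6 samples at 4.22 to 21.1 FPKM and the 3 CC-4349 samples at 73.7 to 768 FPKM, without overlap. GDH1 was higher at each of the 3 times (1.20 ± 0.230, adjusted p = 0.00177). The widest ratio of GDH1 was 3.22 at 4 h and the narrowest 1.42 at 48 h. Without the 4 h libraries both calls were lost, at -3.89 (adjusted p = 0.103) for GLN3 and 0.99 (adjusted p = 0.0549) for GDH1.

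The rescued strains differed from CC-4349 in GLN4 (0.41 ± 0.121, adjusted p = 0.0209) and GDH1 (0.66 ± 0.188, adjusted p = 0.0165), where 32.4% of all genes were called, 16.1% higher and 16.3% lower. Each was higher in 9 of 9 same-time pairs. GLN4 averaged 217 ± 25.0 FPKM in the rescued strains (SD, n = 9 over strains and times) and 164 ± 21.0 FPKM in CC-4349 (SD, n = 3 times). Without the 4 h libraries neither passed (GLN4 0.38, adjusted p = 0.148; GDH1 0.37, adjusted p = 0.305), and without STA6-C6 neither passed (GLN4 0.32, adjusted p = 0.0978; GDH1 0.60, adjusted p = 0.0700). GLN4 was also lost without 0.5 h (0.36, adjusted p = 0.133), without STA6-C4 (0.43, adjusted p = 0.0534) and with quantile normalization (adjusted p = 0.209), and GDH1 without STA6-C2 (0.67, adjusted p = 0.0518). The calls in GDH1 that compare sta6 with CC-4349 and the rescued strains with CC-4349 share the CC-4349 libraries.

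**Figure D4:**
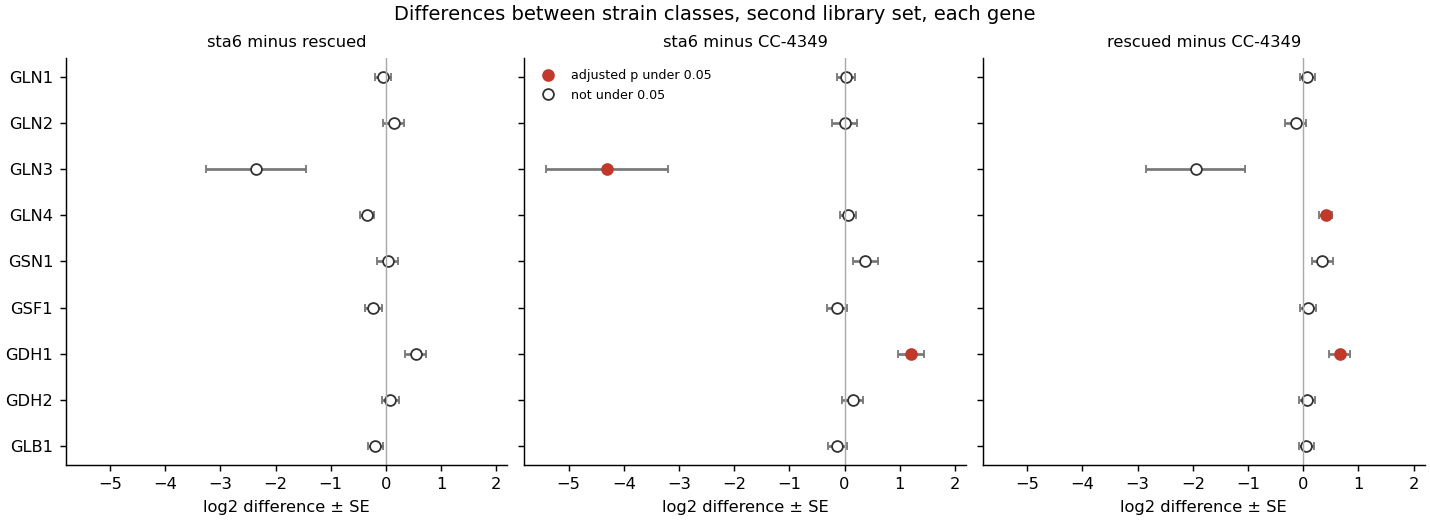
Log2 difference ± SE (limma, log2(FPKM + 1), second set) of each gene for sta6 minus rescued strains, sta6 minus CC-4349 and rescued strains minus CC-4349; filled red points have an adjusted p under 0.05. GLN3 lies farthest from 0 in all 3 panels but is called only between sta6 and CC-4349, and GDH1 lies above 0 in all 3.

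GLN3 set STA6-C4 apart from the other rescued strains. In sta6 it had 4.22, 21.0 and 21.1 FPKM at 0.5, 4 and 48 h. In STA6-C2 it had 16.8, 58.5 and 36.5 FPKM, in STA6-C4 192, 537 and 312 FPKM, and in STA6-C6 18.5, 50.3 and 28.9 FPKM. In CC-4349 it had 73.7, 768 and 337 FPKM. STA6-C4 thus overlapped CC-4349 and lay above both other rescued strains at every time, by 8.54 to 11.4 times. STA6-C4 was set against STA6-C2 and STA6-C6 because this difference had been seen, so its value for GLN3, a log2 difference of 3.29 ± 0.298 over 3 times of 1 line, is a description and no test of it. Over the whole table the same comparison called 26 of 14982 genes (0.174%, with 0.0868% higher and 0.0868% lower), and GLN3 was the 2nd of the 13 higher genes by size. The other 8 genes lay between -0.28 and 0.01 with an adjusted p of 1 in each (limma). The 9 tested neighbours within 5 places of GLN3 in the v5.5 order, GLN2 among them, lay between -0.175 and 0.174 in the same comparison.

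With all 3 rescued strains, GLN3 did not pass between them and CC-4349 (-1.95 ± 0.900, adjusted p = 0.116). With STA6-C4 left out the log2 difference was -3.05. That fit is given because the GLN3 level of STA6-C4 had been seen, so its value is a description and no test. In the first set sta6 had less GLN3 than CC-4349 at 7 of 8 times, with a wide gap at 0.5 h (1.52 FPKM in sta6 and 23.5 FPKM in CC-4349) and narrower ones later. There sta6 had 220.3 FPKM at 4 h and 116 FPKM at 48 h, which is 10.5 and 5.47 times its second-set level, and CC-4349 had 338 and 179.7 FPKM at those times. No other gene of the 9 differed between the sets by over 5 times at a shared strain and time. The first-set log2 difference of GLN3 between sta6 and CC-4349 was -0.66 ± 0.350 (adjusted p = 0.152). It includes the 0.5 h sta6 library that stood apart, whereas at 12 h the levels were 194 FPKM in sta6 and 195 FPKM in CC-4349. Over both sets in 11 same-time pairs it was -1.65 (limma, adjusted p = 0.0318). That value pools unlike sets, since the second set alone gave -4.30 ± 1.10, so it does not show the same difference in both.

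**Figure D5:**
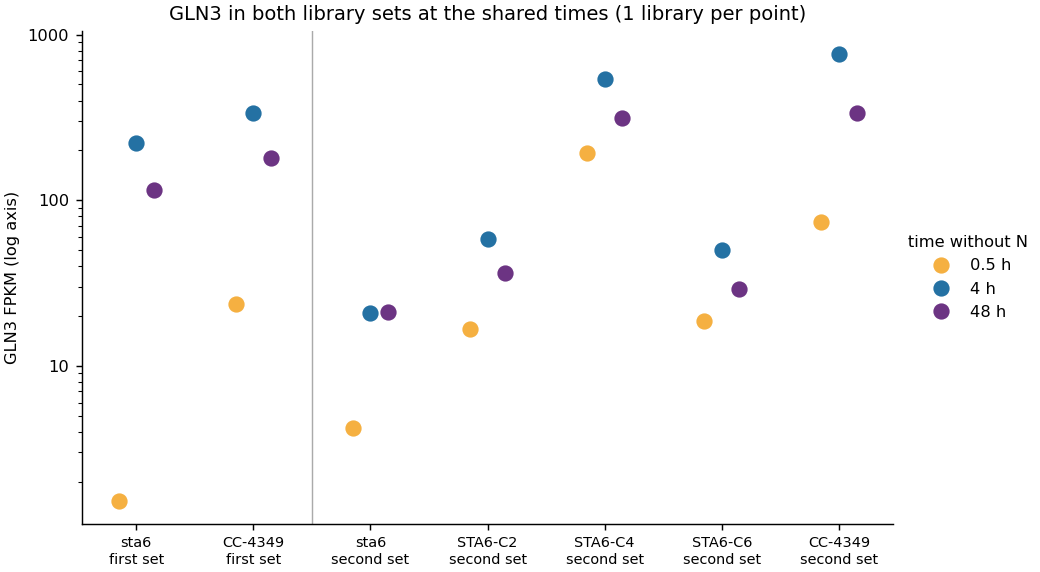
GLN3 level (FPKM, log axis) in each library at the times both sets share, by strain, with the first set left of the grey line and the colour giving the time without nitrogen. STA6-C4 and CC-4349 of the second set reach 537 and 768 FPKM, sta6 of the second set stays at or under 21.1 FPKM, and sta6 of the first set reaches 220.3 FPKM.

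Over the 8 times of the first set, 2 of the 9 genes were called between sta6 and CC-4349, where 42.2% of all genes were called, 9.22% higher and 33% lower. GSN1 was higher in sta6 at 7 of 8 times (log2 difference 0.45 ± 0.132, adjusted p = 0.0191) and GDH1 at 7 of 8 (0.32 ± 0.105, adjusted p = 0.0310). The GSN1 value depended on the paired columns, and with the second column of each pair alone it was -0.19 (adjusted p = 0.297). It also just missed the threshold without 4 h (0.40), and did not pass without 8 h (0.40, adjusted p = 0.0545) or 12 h (adjusted p = 0.0501). GDH1 was lost with any of the times from 2 h on left out (0.30 to 0.33, adjusted p = 0.0614 to 0.0787) and with the first columns alone (0.31, adjusted p = 0.0873). With the second columns alone it kept its call, and in the second set its difference had the same sign. Whether the first-set columns of both strains were quantified alike was not tested here.

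In 1 of the 9 genes the change over the second set (48 h less 0.5 h) was called different in sta6 and the rescued strains, where 10.9% of all genes were called, 3.63% higher and 7.28% lower. GDH1 increased 2.61-fold in sta6 (63.3 FPKM at 48 h against 24.2 FPKM at 0.5 h), and 4.19- to 6.15-fold in the rescued strains. The difference of the log2 changes was -0.97 ± 0.243 (limma, adjusted p = 0.0347). The GDH1 gap was widest at 0.5 h, where sta6 was at 1.82 to 2.65 times the rescued strains, and at 48 h it was at 1.04 to 1.13 times. The single sta6 library at each time gives no spread of its own, so all of the spread in this test comes from the rescued strains. The call was lost without STA6-C2 (-0.89, adjusted p = 0.0958) and without STA6-C4 (-0.88, adjusted p = 0.0734). The GLN3 difference was 1.29 ± 3.01 with all 3 rescued strains and 1.24 without STA6-C4. The latter is a description, since the GLN3 level of STA6-C4 had been seen to differ. GLN2, which increased 3.31-fold in sta6 and 1.75- to 1.96-fold in the rescued strains, did not pass (0.86 ± 0.272, adjusted p = 0.0630), although it did without STA6-C4 (0.84, adjusted p = 0.0343).

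The patterns over all 31 samples tied some of the genes more closely than others. The gene most like GLB1 among 15410 genes was GLN1, with a Pearson r of 0.920 on log2(FPKM + 1). In turn GLB1 ranked 28th for GLN1, whose closest were Cre12.g489700.t1.1 (r = 0.970) and Cre06.g308500.t1.1 (r = 0.961). GSN1 and GDH1 were most like each other among the 9 genes (r = 0.880). Their closest genes overall were Cre07.g336950.t1.1 for GSN1 (r = 0.963) and Cre16.g683450.t1.1 for GDH1 (r = 0.958). GLN3 was closest to Cre08.g360050.t1.2 (r = 0.851), and GLN2 to Cre12.g507300.t1.1 (r = 0.862). GSF1 was closest to Cre28.g776100.t1.1 (r = 0.923) and GDH2 to Cre09.g416950.t1.2 (r = 0.902). GLN4 had no close match, the highest r being 0.673 with Cre16.g677000.t1.1. These 31 samples share strains, times and library sets, so the correlations describe shared time courses and carry no test.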

How the data were processed

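The authors' deposited values were taken as FPKM, reads scaled by gene length and depth; the table gives no unit, and RPKM is as possible. Per the submitters' processing notes the authors used Bowtie; the sources used here do not give its version, the build, the annotation or the counter. The pair of columns of each first-set sample was averaged. Groups came from the strain and time in the labels. From these values log2(FPKM + 1) was tested with limma 3.58.1 in R 4.3.3 (trend and robust fitting) over genes that reached 1 FPKM in 3 or more of the libraries fitted, adjusted by Benjamini-Hochberg over all of them (threshold 0.05); this scale shrinks fold changes of low genes. Fits were tested on simulated data. Gene names come from a list of loci, which the files do not pair with names; RefSeq's v5.5 table matched 9 of 9 and served only for neighbours. All 9 genes were named, plus the most alike genes by Pearson r. Other pathway genes, protein and promoter sequences were not analysed here. The members, lists and tests were chosen with earlier results of these data known. Alternatives were other scalings, pseudocounts, filters, blocks and left-out libraries. Python 3.11.15 with pandas 2.3.3 did the rest.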

Additional observations from a re-analysis of the deposited data

Results flagged for a closer look

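GDH1 was the 1 gene of the 9 whose change over the second set was called different in sta6 and the rescued strains by a test of that difference, where 10.9% of all genes were called, a share close to 1 in 9. The log2 change was smaller in sta6 by the fitted difference of -0.97 ± 0.243 (limma, adjusted p = 0.0347). GDH1 had 63.3 FPKM at 48 h and 24.2 FPKM at 0.5 h in sta6, and 55.8 to 60.9 FPKM at 48 h and 9.16 to 13.3 FPKM at 0.5 h in the rescued strains. The single sta6 library at each time was taken to vary as the rescued ones do. With quantile normalization the difference was -0.76 (adjusted p = 0.0756).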

How the results depend on the processing

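Each comparison was repeated under other scalings, pseudocounts, filters and fits, and counts here are of the 9 genes called. The share of all genes called in the same fits stands in parentheses. Over times, 7 were called in either set (52.1% in the first, 67.3% in the second). Leaving out 1 deposited column of each pair gave 7 in the first set (38.6% and 52.9%). Leaving out 1 strain gave 6 to 7 in the second (51.8% to 74.9%). Leaving a strain out of the first set left 1 library per time, so no test could be run there. Between sta6 and the rescued strains 0 were called under every alternative run (0.198% to 5.48%). Between sta6 and CC-4349 in the second set, 2 (26.8%) became 1 (8.26%) with no replicate block for time. With a time or rescued strain left out the count was 0 to 3 (8.98% to 42.6%). Between the rescued strains and CC-4349, 2 (32.4%) became 1 (37.5%) with quantile normalization and 0 (10.8%) with no replicate block. With a time or strain left out the count was 0 to 3 (13.9% to 42.2%). Between sta6 and CC-4349 in the first set, 2 (42.2%) became 0 (15.3%) with no replicate block. With a time or column left out the count was 0 to 2 (33.7% to 51.6%). In the difference of changes, 1 (10.9%) became 0 (7.13%) with quantile normalization and 0 (8.86%) with equal medians. With a rescued strain left out the count was 0 to 2 (1.77% to 7.75%). For STA6-C4 against the other rescued strains, 1 (0.174%) became 0 (0.0734%) with no replicate block. With a time left out the count was 0 to 1 (0.0273% to 0.118%). Times and strains pair the libraries by design, so the blocked fits are those reported.

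Directions turned in these cases, and the cause was not tested. At 48 h with quantile normalization GLN4 gave 0.077 in the first set, and GLN1 gave 0.52 and GLN4 0.37 in the second. GLN4 at 48 h in the second set gave 0.0082 with equal medians, and -0.076 to 0.069 with 1 strain left out (positive without sta6). With a time or deposited column left out, the first-set strain difference was -0.19 to 0.97 for GSN1 and -0.30 to 0.54 for GSF1, negative with the second columns alone. Of single-gene values under the alternatives, 589 were counted as unchanged, 50 lost a call, 12 gained one and 7 turned direction. Unchanged meant the same direction and call where a test could be run. Where no test could be run it meant a value within the residual spread of the reported fit, and 4 values lay beyond that.

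Counts over all genes moved by over 1.5 times in these settings. The 111 genes between sta6 and the rescued strains became 32 with no replicate block, 53 without 0.5 h, 29 without 4 h, 792 without 48 h and 46 to 58 with a rescued strain left out. The 4012 between sta6 and CC-4349 became 1237 with no block, 2281 without 0.5 h, 1316 without 4 h and 6158 without 48 h. The 4860 between the rescued strains and CC-4349 became 1612 with no block, 2924 without 0.5 h and 2044 without 4 h. With no block, 6380 became 2316 between the first-set strains and 7864 became 3371 over first-set times. The 1634 of the difference of changes became 1068 with quantile normalization, 833 with STA6-C2 left out and 263 with STA6-C6 left out. The 26 of the STA6-C4 comparison became 11 with no block, 6 without 0.5 h, 4 without 4 h and 17 without 48 h. With 1 library per strain and time and no read totals, small differences cannot be separated from counting error.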
